A study of Rattus norvegicus with 38 samples.

Results

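Phenobarbital and Benzophenone were compared directly with each other in rat liver, and their changes from control diet were then set side by side to find those that both chemicals share and the ratio of their sizes. The comparison used the arrays titled for the 2 chemicals, 8 of the 38 arrays of the series, and all miRNAs detected in the liver. Male Fischer (F344) rats, 8 weeks old at supply and housed 5 to a cage, received chemical in powdered diet for 90 days. The groups were Phenobarbital at 1000 ppm (n = 3), Benzophenone at 1250 ppm (n = 5) and control diet without chemical (n = 5). The other 25 arrays came from 6 further chemicals. The 2 doses are not the same, and the labels describe each dose as carcinogenic or maximally tolerated without saying which applies. Each array held RNA from 1 liver sample of whole tissue, and the cage of each animal is not given. The p-values thus measure the spread between arrays within groups, pooled over all 38 arrays unless stated. In whole tissue, fewer cells of a type and less RNA per cell cannot be told apart.

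Phenobarbital is a barbiturate that activates the constitutive androstane receptor (CAR), a nuclear receptor of hepatocytes that switches on genes for drug metabolism and, in rodents, drives liver growth. Benzophenone is an aromatic ketone used as an absorber of ultraviolet light, and in rats it induces liver enzymes of the same type as phenobarbital does. MicroRNAs (miRNAs) are short RNAs that guide Argonaute proteins to messenger RNAs through the seed, a stretch near the 5′ end, and lower the output of those messages. The arrays measured miRNAs and no messenger RNA of CAR target genes, so a CAR response itself could not be checked in these samples.

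The 6 miRNAs that differed between the chemicals come from 3 chromosomal clusters, and the mature sequences that were matched are shown so that their seeds can be compared. The capitals mark the seed, bases 2 to 8 counted from the 5′ end. Sequences and positions were taken from RefSeq on GRCr8, and 7 of 11 miRNAs looked up had a mature entry. None was found for miR-200a, miR-200b, miR-429 and miR-99a, so no seed of the cluster on chromosome 5 is shown. The first 3 sequences belong to the miR-183 cluster, the next 2 to the miR-221 cluster and the last 2 to the branch of the miR-200 family on chromosome 4.
miR-96: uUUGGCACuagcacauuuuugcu
miR-182: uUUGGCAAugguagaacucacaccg
miR-183: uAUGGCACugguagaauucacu
miR-221: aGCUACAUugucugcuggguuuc
miR-222: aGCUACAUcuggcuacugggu
miR-200c: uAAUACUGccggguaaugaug
miR-141: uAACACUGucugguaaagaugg

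The miR-182 seed differs from the miR-96 seed by the substitution C8A, and the miR-183 seed differs from it by U2A. The seeds of miR-221 and miR-222 have the same letters. Within the miR-200 family, the miR-141 seed differs from the miR-200c seed by U4C. The mature forms lie at chr4:59755901-59755923 (minus strand) for miR-96, at chr4:59752249-59752273 (minus strand) for miR-182 and at chrX:6023246-6023268 (plus strand) for miR-221. Of the partners, miR-183 lies at chr4:59756106-59756127 and miR-222 at chrX:6022682-6022702, on the strands of their clusters, and miR-200c (chr4:159209969-159209989) and miR-141 (chr4:159209540-159209561) lie on the minus strand. The genes of miR-183, miR-96 and miR-182 span 3908 bases of chromosome 4, from 59752246 to 59756153, and no other annotated gene overlaps them. The genes of miR-200b, miR-200a and miR-429 span 1908 bases of chromosome 5, from 171929682 to 171931589, inside the spans of the protein-coding gene Ttll10 and the long non-coding RNA LOC106182250. The genes of miR-221 and miR-222 span 670 bases of chromosome X, from 6022621 to 6023290, and overlap the long non-coding RNAs LOC120099382 and LOC120099384. The spans do not say whether an miRNA lies in an exon or an intron of the overlapping gene.

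The Phenobarbital arrays detected 107 to 135 of the 350 miRNAs, the Benzophenone arrays 104 to 133 and the control arrays 100 to 129. Testing covered 129 miRNAs, each detected throughout at least 1 of the 9 groups. A level is log2 of the signal over the array's 75th percentile, and values under a floor of -5.50 were set to it, so levels near the floor understate differences. Pairs of arrays of 1 group correlated between 0.990 and 0.993 in Phenobarbital livers, between 0.961 and 0.989 in Benzophenone livers and between 0.957 and 0.996 in control livers. The arrays lie on 6 slides, and the 2 chemicals share only slide 1. Slide 1 holds Phenobarbital replicate 1, Benzophenone replicate 1 and control replicates 3 and 4. Results are given with this slide alone and with slide as a block where these values bear on them.

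In the direct comparison 6 of 129 miRNAs passed limma's test at an adjusted p under 0.05 (4.65%), all 6 higher in Phenobarbital livers and 0 lower. They were miR-200a, miR-200b and miR-429 of the miR-200 family, miR-96 and miR-182 of the miR-183 cluster, and miR-221. The miR-200 family keeps cells epithelial by repressing the transcription factors Zeb1 and Zeb2. The differences ran from 0.68 to 1.08 on the log2 scale, or 1.60-fold to 2.11-fold. In all, 18 miRNAs had an unadjusted p under 0.05.

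The miR-183 cluster is best known from sensory organs and is raised in several epithelial tumours. miR-96 had levels of -2.86, -3.02 and -3.01 in Phenobarbital livers, against -3.37, -3.96, -3.93, -4.24 and -4.30 in Benzophenone livers and -5.17, -5.07, -4.66, -4.97 and -5.01 in control livers. All 3 Phenobarbital arrays lay above all 5 Benzophenone arrays, and these lay above all 5 control arrays, 3 of which detected miR-96. Phenobarbital livers exceeded Benzophenone livers by 0.996 ± 0.17 (log2 difference ± SE; limma adjusted p = 0.000157), which is 1.99-fold with a 95% interval of 0.65 to 1.34 on the log2 scale. With only the Phenobarbital and Benzophenone arrays fitted, the limma adjusted p of miR-96 was 0.120. A second probe of miR-96 differed by 0.98.

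For miR-182 the levels were -4.18, -4.23 and -4.13 in Phenobarbital livers, against -4.60, -5.07, -4.61, -5.36 and -4.93 in Benzophenone livers. All 5 control arrays were at the floor and none detected miR-182. The Phenobarbital and Benzophenone arrays did not overlap, and the difference was 0.73 ± 0.13 (limma adjusted p = 0.000157), or 1.66-fold. The SE pools all 9 groups. At the floor, the SD of miR-182 was 0 in control, Chlorendic Acid, Methapyrilene HCl and 2-acetylaminofluorene livers, against 0.32 in Benzophenone livers. Such groups lower the pooled spread, so the SE and p understate the Benzophenone spread. With only the 8 arrays of the 2 chemicals, the limma adjusted p was 0.204. Of the 3 probes of miR-182 only 1 rose above the floor in Phenobarbital, Benzophenone or control livers. The remaining member, miR-183, did not pass the detection filter.

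Among the miR-200 family, miR-200a had levels of -2.77, -3.02 and -3.28 in Phenobarbital livers, against -3.39, -4.83, -4.05, -3.85 and -4.39 in Benzophenone livers and -5.50, -5.12, -4.97, -5.02 and -4.92 in control livers, where 3 of 5 arrays detected it. The groups did not overlap, and Phenobarbital livers were higher than Benzophenone livers by 1.08 ± 0.24 (limma adjusted p = 0.0025). miR-200b had levels of -2.37, -2.34 and -2.59 in Phenobarbital livers, against -2.77, -4.27, -3.36, -3.40 and -3.37 in Benzophenone livers and -4.48, -4.95, -4.58, -4.61 and -4.72 in control livers, where 4 of 5 arrays detected it. These arrays did not overlap between groups either, and the difference was 1.003 ± 0.24 (limma adjusted p = 0.0068). In both miRNAs the Phenobarbital arrays lay closer together (SD 0.26 for miR-200a and 0.14 for miR-200b, n = 3) than the Benzophenone arrays (SD 0.55 and 0.54, n = 5). The SE pools the spread of every group, and most groups had a smaller SD than Benzophenone. The SE and p of both miRNAs thus understate the Benzophenone spread. With only the Phenobarbital and Benzophenone arrays fitted, the limma adjusted p was 0.261 for miR-200a and 0.261 for miR-200b.

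miR-429, the dimmest of the 3, had levels of -4.53, -4.39 and -4.69 in Phenobarbital livers, against -4.64, -5.50, -5.26, -5.21 and -5.48 in Benzophenone livers, of which 3 of 5 detected it. It was at the floor on all 5 control arrays. Benzophenone replicate 1 lay above Phenobarbital replicate 3, so these groups overlapped, and the difference was 0.68 ± 0.15 (limma adjusted p = 0.0025). miR-200c and miR-141, which complete the family, did not pass the detection filter.

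miR-221 represses the cell-cycle inhibitor p27 and is linked to proliferation. Its levels were -4.45, -4.14 and -4.24 in Phenobarbital livers, against -4.85, -5.50, -4.92, -4.98 and -5.09 in Benzophenone livers and -4.17, -4.94, -4.26, -3.95 and -4.28 in control livers. The Phenobarbital arrays lay above all Benzophenone arrays and among the control arrays. The difference between the chemicals was 0.79 ± 0.20 (limma adjusted p = 0.0088), and a second probe, not detected on any Benzophenone array, differed by 0.48. Its cluster partner miR-222 did not pass the detection filter.

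**Figure D1:**
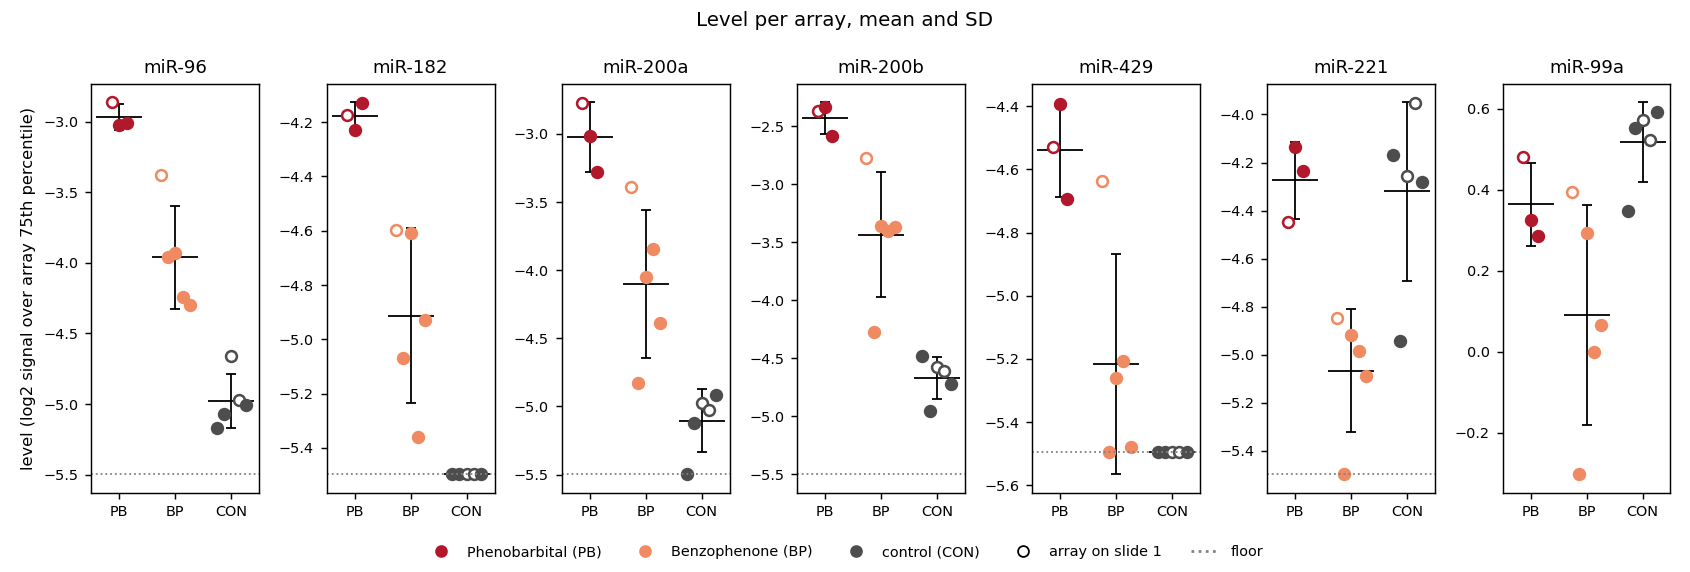
Level on each array (vertical axis, log2 signal over the array's 75th percentile, each panel with its own range) of miR-96, miR-182, miR-200a, miR-200b, miR-429, miR-221 and miR-99a, for Phenobarbital (PB, n = 3), Benzophenone (BP, n = 5) and control (CON, n = 5), with horizontal bars at the mean and error bars of 1 SD. Open circles are arrays of slide 1, and the dotted line is the floor. In all 7 panels the open Benzophenone circle, replicate 1, is the highest of its group.

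The median difference over all 129 miRNAs was 0.15, with 96 above 0 and 33 below. Quantile normalization moved this median to 0.033, and in the authors' deposited values it was -0.016. Relative to the median of 0.15, the differences were 0.93 for miR-200a, 0.85 for miR-200b, 0.84 for miR-96, 0.64 for miR-221, 0.58 for miR-182 and 0.53 for miR-429. Phenobarbital arrays lay wholly above the Benzophenone arrays for 8 of 129 miRNAs (6.2%) and wholly below for 1 (0.775%). Of those 8, miR-100 (0.19), miR-34a (0.50, adjusted p = 0.310) and miR-505 (0.60, adjusted p = 0.323) did not pass limma's test. The 1 below was miR-146a (-0.18, adjusted p = 0.646), and it and miR-505 lie outside the naming rule and were chosen after their values were seen.

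Benzophenone replicate 1, on slide 1, had the highest Benzophenone level for each of the 6 called miRNAs. Within slide 1, with 1 array of each chemical and no replicate, Phenobarbital exceeded Benzophenone in miR-96 by 0.51, in miR-182 by 0.42, in miR-200a by 0.62, in miR-200b by 0.41, in miR-429 by 0.11 and in miR-221 by 0.40. With slide as a block, 2 of the 6 kept their call in limma, miR-96 (0.85, adjusted p = 0.0097) and miR-182 (0.56, adjusted p = 0.0237). The differences of the other 4 were then 0.79 for miR-200a (adjusted p = 0.156), 0.73 for miR-200b (adjusted p = 0.335), 0.51 for miR-429 (adjusted p = 0.152) and 0.84 for miR-221 (adjusted p = 0.0607). Without Benzophenone replicate 1, 12 miRNAs were called in place of 6, all higher in Phenobarbital livers. The 6 added were miR-140, miR-143, miR-148b-3p, miR-22, miR-27a and miR-29a, of which miR-143 lies outside the naming rule. Since 1 Benzophenone array lies on slide 1, its slide and its animal cannot be told apart.

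Other scalings ended calls as well, and miR-221 was lost with scaling over all probes (limma adjusted p = 0.0681) and quantile normalization (adjusted p = 0.157), and miR-200b with quantile normalization (adjusted p = 0.119). Leaving out Phenobarbital replicate 2 ended the calls of miR-200b (adjusted p = 0.0530) and miR-221 (adjusted p = 0.0855), and leaving out replicate 3 ended that of miR-221 (adjusted p = 0.0513). A limma fit of only the 8 arrays of the 2 chemicals called 0 miRNAs, with 15 at an unadjusted p under 0.05. Normexp background correction of all arrays also called 0 in limma, here and against control, with 11 at an unadjusted p under 0.05 in the direct comparison. With the replicate number as a block, miR-148b-3p passed as well, which makes 7 called.

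**Figure D2:**
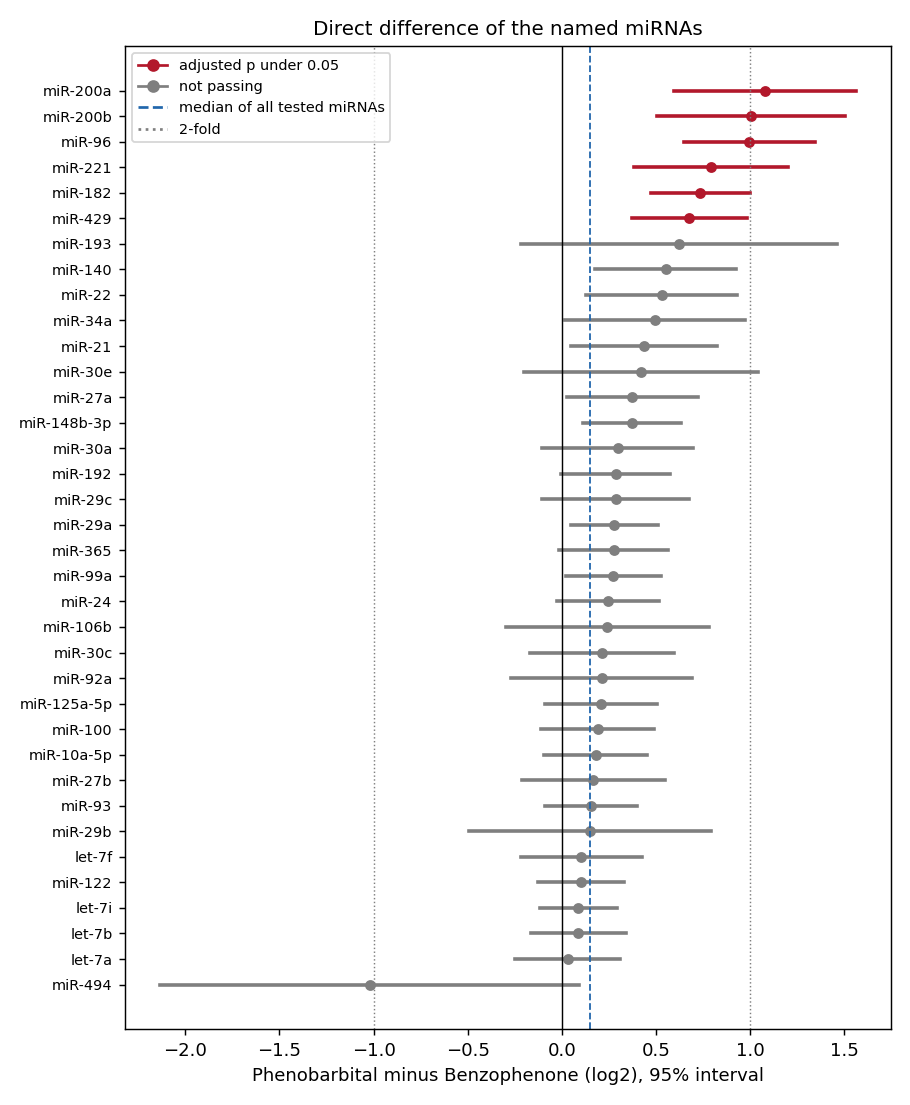
Phenobarbital minus Benzophenone (horizontal axis, log2 difference with its 95% interval) for the 36 miRNAs chosen by the naming rule, ordered by size. Red marks an adjusted p under 0.05 and grey the others, the dashed line is the median of 0.15 over all 129 tested miRNAs, and the dotted lines mark a 2-fold difference. The 6 red intervals lie wholly above 0, and miR-494 has the widest of those that cross it.

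Against control diet, 5 of 129 miRNAs passed limma's test in Phenobarbital livers (3.88%), all higher, and 6 passed in Benzophenone livers (4.65%), of which 4 were higher (3.1%) and 2 lower (1.55%). There were 4 miRNAs that changed with both chemicals and in the same direction (3.1% of 129): miR-200b, miR-200a, miR-96 and miR-182, 4 of the 5 Phenobarbital changes and 4 of the 6 Benzophenone changes. All 4 were higher than in control livers. Without Benzophenone replicate 1, 12 miRNAs passed in Benzophenone livers, 4 higher and 8 lower, and the same 4 remained shared. Fits of only the groups compared left 2 shared, miR-200b and miR-96. The comparisons share the 5 control arrays, so a high or low control array moves both. The arrays of each chemical lay wholly above the control arrays for all 4, where 12 of 129 miRNAs (9.3%) did so in Phenobarbital livers and 4 of 129 (3.1%) in Benzophenone livers.

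Each shared change was larger with Phenobarbital. miR-200b exceeded control livers by 2.24 ± 0.24 in Phenobarbital livers (4.72-fold) and by 1.23 ± 0.21 in Benzophenone livers (2.35-fold). The ratio of these log2 changes, Phenobarbital over Benzophenone, was 1.81 with a 95% interval of 1.34 to 2.65 by Fieller's method, which takes account of the shared controls. miR-96 exceeded control livers by 2.01 ± 0.17 with Phenobarbital (4.03-fold) and by 1.02 ± 0.15 with Benzophenone (2.02-fold), a ratio of 1.98 (1.55 to 2.70). For miR-200a the changes were 2.08 ± 0.24 with Phenobarbital (4.24-fold) and 1.01 ± 0.21 with Benzophenone (2.01-fold), a ratio of 2.07 (1.48 to 3.32). Its lowest control array was at the floor, so this ratio may be overstated. A second probe of miR-200a, detected on no control array and on 3 Benzophenone arrays, differed from control by 1.25 with Phenobarbital and 0.30 with Benzophenone.

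miR-182 was at the floor in all control livers, so its folds are lower bounds: at least 2.41-fold higher with Phenobarbital and at least 1.45-fold with Benzophenone, against the lowest signal well above background on each control array. A control level below the floor would add the same amount to both log2 changes, so the ratio of 2.26 (1.66 to 3.49) is an upper bound. The median of the 4 ratios was 2.03. Each interval lay above 1, which restates the direct comparison, since both come from the same fit of the same arrays. The miR-182 interval rests on a spread that groups at the floor lower. Over single Phenobarbital arrays, each set against the Benzophenone mean, the ratio ran from 1.81 to 2.32 for miR-200a, the widest range of the 4 by its SD of 0.25.

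Within slide 1 the ratios were smaller, at 1.22 for miR-200b, 1.36 for miR-96, 1.38 for miR-200a and 1.47 for miR-182. With slide as a block they were 1.48, 1.73, 1.61 and 1.75 in the same order. Without Benzophenone replicate 1 the median ratio was 2.42. In point values, Phenobarbital had the larger change of each of the 4 in slide 1, with 1 array of each chemical, and with slide as a block. With that block, the direct difference was called for miR-96 and miR-182. It was not called for miR-200a (limma adjusted p = 0.156) and miR-200b (adjusted p = 0.335).

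**Figure D3:**
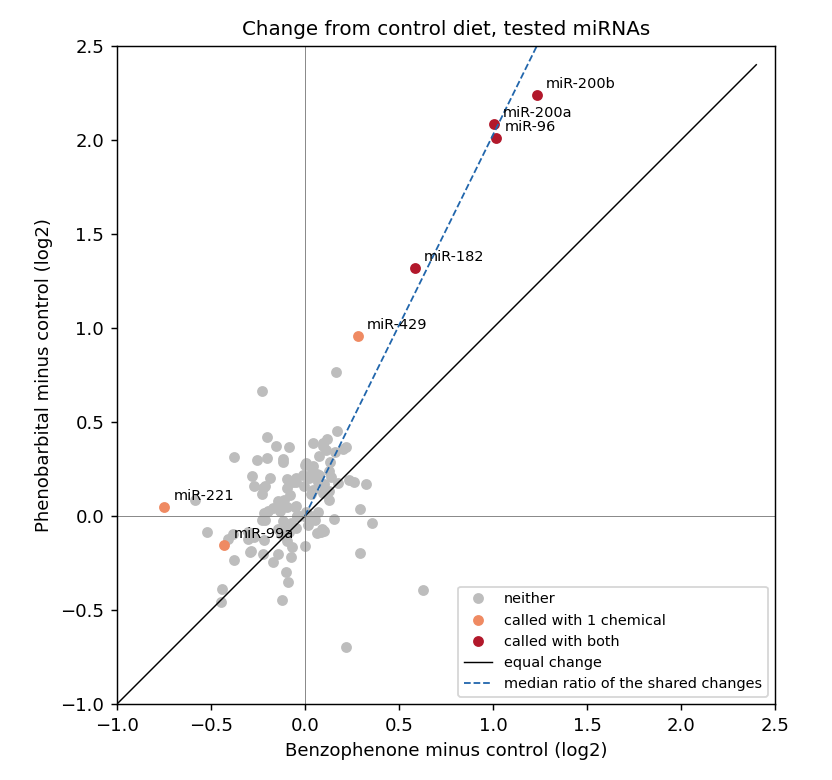
Change from control diet of each of the 129 tested miRNAs with Phenobarbital (vertical axis, log2 difference) and with Benzophenone (horizontal axis, log2 difference), both against the same 5 control arrays. Red points passed the test with both chemicals, orange points with 1 and grey points with neither, the solid line marks equal change and the dashed line the median ratio of 2.03. The 4 red points lie above the line of equal change.

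Another 3 changes from control were called with only 1 of the chemicals. miR-429 was higher in Phenobarbital livers than in control livers, by at least 1.88-fold (limma adjusted p = 8.72e-06), and its Benzophenone difference was 0.28 ± 0.13 (adjusted p = 0.310). With a lower floor and in the authors' deposited values miR-429 passed with Benzophenone too, which makes 5 shared. The direct test above called a difference of miR-429 between the chemicals. That call was lost with slide as a block (limma adjusted p = 0.152), in the authors' deposited values (adjusted p = 0.363) and with only the groups compared (adjusted p = 0.261). All control arrays were at the floor for miR-429, and a control level below it would lower the ratio. The interval of the ratio, 1.83 to 51.6, thus sets no useful end on either side. miR-221 in Phenobarbital livers differed from control livers by 0.046 with a 95% interval of -0.36 to 0.46, while in Benzophenone livers it fell by 0.75 ± 0.17 (limma adjusted p = 0.0040). The direct difference of miR-221, which subtracts no control level, also passed. With only the groups compared, miR-221 passed neither in the direct comparison (limma adjusted p = 0.120) nor for Benzophenone against control (adjusted p = 0.0874).

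miR-99a, which represses the growth kinase mTOR in human cells, had levels of 0.48, 0.32 and 0.29 in Phenobarbital livers, against 0.40, -0.30, 0.29, 0.00 and 0.07 in Benzophenone livers and 0.35, 0.55, 0.57, 0.52 and 0.59 in control livers. All 3 groups overlapped. The difference from control livers was -0.15 ± 0.12 in Phenobarbital livers (limma adjusted p = 0.669) and -0.43 ± 0.11 in Benzophenone livers (adjusted p = 0.0076). The chemicals did not differ by the test, at 0.27 with a 95% interval of 0.02 to 0.53 (adjusted p = 0.291). The miR-99a call in Benzophenone livers was lost without Benzophenone replicate 2 (adjusted p = 0.0520), with slide as a block (adjusted p = 0.0691), with the mean of the probes (adjusted p = 0.0686), in the authors' deposited values (adjusted p = 0.0684), with normexp (adjusted p = 0.0948) and with only the groups compared (adjusted p = 0.144).

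For most tested miRNAs the fit gave a narrow interval for the difference between the chemicals. The 95% interval of Phenobarbital minus Benzophenone lay within 1 log2 unit of 0, a 2-fold difference, for 111 of 129 miRNAs (86%), and within 0.5 for 53. The median half-width of the interval was 0.36, or 1.29-fold. These counts include miRNAs such as let-7d*, outside the naming rule, at the floor on every Phenobarbital and Benzophenone array. For such miRNAs the floor fixes the difference in advance, and the interval bounds nothing. The 111 also include the called miR-182 (0.47 to 0.997). Of the 123 miRNAs that did not pass the test, miR-122, the dominant miRNA of hepatocytes, had levels of 6.28, 6.26 and 6.09 in Phenobarbital livers, against 6.25, 5.84, 6.31, 5.99 and 6.14 in Benzophenone livers and 6.73, 6.07, 6.41, 6.49 and 6.30 in control livers. The groups overlapped, and the chemicals differed by 0.10 (-0.13 to 0.33).

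miR-21, which is raised in many injured and growing tissues, had levels of 2.89, 2.33 and 2.48 in Phenobarbital livers, against 2.57, 1.92, 2.17, 2.25 and 1.72 in Benzophenone livers and 2.56, 2.79, 2.95, 2.29 and 2.65 in control livers. Its difference of 0.44 (0.05 to 0.82) did not pass (limma adjusted p = 0.285). let-7a, of the growth-restraining let-7 family, differed by 0.031 (-0.25 to 0.31). The widest interval had a half-width of 1.41. The next miRNAs by p were miR-140 (0.55, adjusted p = 0.0933), miR-148b-3p (0.37, adjusted p = 0.109), miR-22 (0.53, adjusted p = 0.155) and miR-29a (0.28, adjusted p = 0.242), given as values only.

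By family, the direct comparison called 3 of 3 tested members of the miR-200 family (median difference 1.003), 2 of 2 of the miR-183 cluster (median 0.87) and 1 of 1 of the miR-221 cluster, against 4.65% of all tested miRNAs. These are all 6 called miRNAs, so that share is made up of them alone. On the same lists, miR-200c, miR-141, miR-183 and miR-222 were not tested. The lists were chosen with earlier results of these data known. None was called of 7 tested in the miR-99, miR-10 and miR-125 family (median 0.18), 8 hepatocyte-enriched miRNAs (0.20) or 8 let-7 miRNAs (0.030). The same count of 0 held for 8 tested of the list that holds miR-17, miR-20a, miR-92a and miR-106b (0.12), 3 of the collagen-repressing miR-29 family (0.28), 5 of the miR-30 family (0.22) and 5 of the miR-23, miR-24 and miR-27 clusters (0.17). Those medians ran from 0.030 to 0.28, around the 0.15 of all tested miRNAs. At the imprinted Dlk1-Dio3 locus 1 of 30 miRNAs on the array was tested. This was miR-494, at -0.66, -0.04 and -0.48 in Phenobarbital livers against -0.50, 2.80, -1.03, 0.69 and 1.17 in Benzophenone livers. Its difference of -1.02 did not pass (limma adjusted p = 0.331), and the Benzophenone arrays ranged widely (SD 1.504, n = 5).

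Markers of other liver cells were summed on the linear scale, relative to the array's 75th percentile. The biliary and other epithelial markers summed to 0.734 to 0.848 in Phenobarbital livers, 0.474 to 0.771 in Benzophenone livers and 0.214 to 0.600 in control livers. Of the 4 tested markers of this list, 3 are the miR-200 members themselves, and miR-200c and miR-141 were not tested. The remaining marker, miR-31, differed by 0.068 between the chemicals and by 0.21 in Phenobarbital livers and 0.14 in Benzophenone livers from control, none of which passed. The part of biliary cells in the miR-200 result was not tested. The endothelial marker miR-126 stood at 1.67 to 1.86 in Phenobarbital livers, 1.15 to 1.88 in Benzophenone livers and 1.51 to 1.76 in control livers.

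Hepatocyte markers summed to 73.5 to 84.1 in Phenobarbital livers, 60.8 to 85.7 in Benzophenone livers and 73.4 to 112 in control livers. Stellate and mesenchymal markers summed to 0.890 to 0.981 in Phenobarbital livers, 0.685 to 1.102 in Benzophenone livers and 0.795 to 0.928 in control livers. Leukocyte markers summed to 0.628 to 0.674 in Phenobarbital livers, 0.660 to 0.793 in Benzophenone livers and 0.474 to 0.809 in control livers. Red cell markers summed to 0.712 to 1.03 in Phenobarbital livers, 0.838 to 2.09 in Benzophenone livers and 0.815 to 1.15 in control livers. The direct comparison called 0 of the tested markers of these 4 lists and of the endothelial one.

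Set against the mean of the other 6 chemicals, the mean of Phenobarbital and Benzophenone differed for 21 of 129 miRNAs (16.3%), 6 higher (4.65%) and 15 lower (11.6%). Scaling over all probes turned this split to 8 higher and 4 lower. The control arrays enter this test only through the shared estimate of the spread. The 6 higher were miR-96 (1.251 ± 0.097), miR-200b (1.02 ± 0.14), miR-193 (0.98 ± 0.24), miR-200a (0.95 ± 0.14), miR-182 (0.83 ± 0.073) and miR-429 (0.49 ± 0.085), with limma adjusted p of 0.0022 or less. They include the 4 shared changes, which were found with the same Phenobarbital and Benzophenone arrays, so this overlap is partly built in. The contrast averages the 2 chemicals, so a high Phenobarbital level alone can carry it. On the probe used, miR-182 was detected on every array only with these 2 chemicals. It thus entered the test through the groups where it is high, here and against control. Groups at the floor also lower the SE of miR-182 and miR-429. miR-193 differed from control by 0.42 in Phenobarbital livers and -0.20 in Benzophenone livers, and neither passed.

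Among all 9 groups, Phenobarbital had the highest mean of miR-96, miR-182, miR-200a, miR-200b and miR-429. Benzophenone ranked next for miR-96 (-3.96 ± 0.37), miR-182 (-4.91 ± 0.32) and miR-200b (-3.43 ± 0.54), followed by Monuron in miR-96 (-4.18 ± 0.22), Diethylhexylphthalate in miR-182 (-5.13 ± 0.26) and 2-acetylaminofluorene in miR-200b (-3.53 ± 0.30). Those neighbours of Benzophenone lie within 1 SD of it. More chemicals came near Benzophenone in miR-200a: Chlorendic Acid (-4.15), Methapyrilene HCl (-4.28) and Diethylhexylphthalate (-4.42), against -5.11 in control livers. In miR-200b they stood at -3.55, -3.84 and -3.74 in the same order, against -4.67 in control livers. Monuron (-4.99 and -4.36) and Diethylthiourea (-5.25 and -4.68) lay nearer control in miR-200a and miR-200b. For miR-200a, 2-acetylaminofluorene (-3.98 ± 0.35) stood between Phenobarbital (-3.02 ± 0.26) and Benzophenone (-4.10 ± 0.55). It stood between them for miR-429 as well, at -4.999 ± 0.38 against -4.54 ± 0.15 for Phenobarbital and -5.22 ± 0.35 for Benzophenone.

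The 15 lower were led by miR-34a, a target of p53, at -1.58, miR-221 at -0.64 and miR-342-3p at -0.44. This contrast also averages the other chemicals, so a high level with any of them can make a miRNA lower here. Against control, miR-34a and miR-342-3p passed the main test with neither Phenobarbital nor Benzophenone. Of the 9 groups, miR-221 ranked 5 with Phenobarbital (-4.27 ± 0.16, n = 3) and lowest with Benzophenone (-5.07 ± 0.26, n = 5). It was highest with Diethylhexylphthalate (-2.71 ± 0.092, n = 4).

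**Figure D4:**
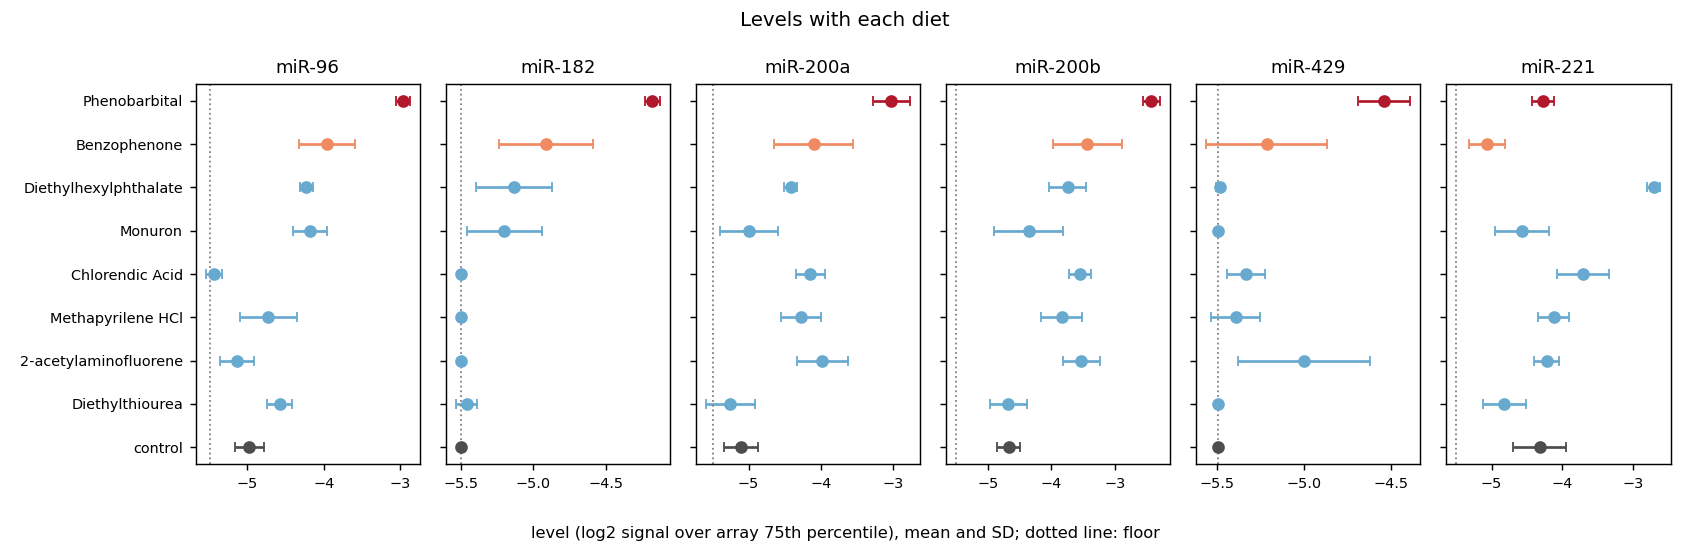
Mean level (horizontal axis, log2 signal over the array's 75th percentile, each panel with its own range) with 1 SD of miR-96, miR-182, miR-200a, miR-200b, miR-429 and miR-221 for each of the 8 chemicals and control, 3 to 5 arrays each. The dotted line is the floor. Phenobarbital, the top row, has the highest mean in the first 5 panels, and Benzophenone the lowest for miR-221.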

How the data were processed

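Per the labels, total RNA of frozen liver was labelled with Cy3 and hybridised to 1-colour Agilent miRNA arrays. Per the file headers the deposited scanner files were written by Feature Extraction 10.5.1.1, and they give a linear, background-processed intensity for each spot. The authors' deposited value table is in log2 units for 167 miRNAs. Subtracting 1 constant per array from log2 total gene signal returns 99.4% of its 6293 values to within 0.01. Column medians were 0.0162 to 0.337, and the sources used here give no reason for the choice of the 167 or the constant.

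Control spots and outlier spots (2.17% to 6.41% of 7000 per array) were left out, and no spot was saturated. Spots of each of 938 probes were averaged, the signals were scaled by the 75th percentile of the 137 probes that all arrays detected, and a floor was set at the 5th percentile of detected values. That floor is 16.7 signal units on the median array. The scaling values were 723 to 866 signal units for Phenobarbital, 631 to 838 for Benzophenone and 486 to 1060 for control. Each miRNA took its brightest probe, and it was detected where over 50% of a probe's spots were well above background.

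All 38 arrays were fitted with limma 3.58.1 in R 4.3.3, with no covariate and a Benjamini-Hochberg adjusted p under 0.05 over the 129 tested miRNAs. Figures used matplotlib 3.10.9 in Python 3.11.15. The fit was also run on simulated data. These had no floor, no slide effect and the same spread in every group, so that run does not bear on those limits. Precision is limited by the number of arrays and, for dim miRNAs, by how far signals exceed background.

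The miRNAs named are all those called in the direct comparison or against control, those with the smallest p up to 10 in the direct comparison, the 5 brightest, miR-34a, miR-122 and miR-21, and of each family list the called members and up to 3 more by p. The members, lists and this rule were chosen with earlier results of these data known. miRNAs called against the other chemicals and the marker miRNAs of other cell types are named as well.

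Samples were grouped by title. The labels do not say what a replicate number marks. Phenobarbital and Benzophenone arrays of the same number deviated together from their group means (correlations 0.435, 0.449 and 0.388), whereas with control they did not in every pair (-0.183 to 0.291 for Phenobarbital, -0.369 to 0.487 for Benzophenone). Alternatives were scaling over all probes, quantile normalization, normexp with an offset of 50 (on median signals, the only ones in the files), total gene signal, the mean of the probes, the authors' table, a lower floor, no filter, miRNAs detected on all arrays, slide or replicate number as a block, only the groups compared, and each array left out. No alternative was added after the values were seen.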

Additional observations from a re-analysis of the deposited data

Results flagged for a closer look

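For the 36 named miRNAs, the 5 Benzophenone and the 5 control arrays were each checked with Dixon's limit, and the 3 Phenobarbital arrays were not. In 9 of 70 such groups an array lay farther from the rest than the limit. Chance gives about 1 in 20 for independent groups, but these reuse the same arrays. The flag in Benzophenone livers was miR-24 in replicate 1, the array on slide 1, at -0.10 against -0.73 to -0.64 on the other 4 arrays. The other 8 were low control arrays. In control replicate 1 these were miR-24 at -0.91 (others -0.40 to -0.28), miR-27b at -1.17 (others -0.067 to 0.0068), miR-29a at 1.84 (others 2.18 to 2.30), miR-29c at -0.26 (others 0.60 to 0.77), miR-30a at -1.90 (others -1.02 to -0.84) and miR-99a at 0.35 (others 0.52 to 0.59). In control replicate 2 they were let-7f at 2.49 (others 2.99 to 3.17) and miR-365 at -0.78 (others -0.12 to 0.049). Control replicate 1 enters the comparisons with control as a level and the direct one through the shared estimate of the spread. Without it the direct comparison again called 6 miRNAs, and the same 4 shared changes remained.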

How the results depend on the processing

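The direct comparison called 6 miRNAs, and 4 to 7 under scaling over all probes, quantile normalization, the mean of the probes, total gene signal, a lower floor, no filter and the replicate block. It called 2 with slide as a block, miR-96 and miR-182, and 2 in the authors' table, miR-96 and miR-200a, where miR-182 had an adjusted p of 0.814. It called 0 with normexp, with miRNAs detected on all arrays and with only the groups compared in limma, where 11, 9 and 15 had an unadjusted p under 0.05. Leaving out 1 array gave 4 to 12. Phenobarbital against control called 5, then 0 with normexp (4 unadjusted) and 0 with miRNAs detected on all arrays (6 unadjusted), and 5 to 6 without 1 array. Benzophenone against control called 6, then 0 with normexp (6 unadjusted), 1 with miRNAs detected on all arrays, 2 with only the groups compared, and 6 to 12 without 1 array. Shared changes numbered 4, then 0, 0 and 2 under these 3 settings, and 4 without any 1 array. The 4 were other miRNAs with total gene signal, where miR-429 stood in place of miR-182. Both chemicals against the other 6 gave 21 calls, 12 with scaling over all probes, 0 with normexp (16 unadjusted), 8 with miRNAs detected on all arrays, and 16 to 28 without 1 array (28 without control replicate 1, 9 higher and 19 lower). The ratio of size, a median of 2.03, moved to 1.75 with quantile normalization, 1.69 in the authors' table and 1.67 with slide as a block, and lay between 1.87 and 2.42 without 1 array. The interval within 1 log2 unit held for 111 of 129 miRNAs, 73 of the 80 detected on all arrays, and 102 to 112 without 1 array. With normexp the Benzophenone changes under the ratio were near 0 (miR-96 0.097, miR-200a 0.098, miR-182 -0.0065, which turned its sign), so the 6.37 that results there measures no ratio. None of the 6 called miRNAs was detected on all arrays, so that setting left them out, and for the other settings the cause was not tested. The replicate block gave 7 calls in the direct comparison, 5 for Phenobarbital and 6 for Benzophenone against control, and it ended none of the calls named in the direct comparison. Dim signal limits miR-182, miR-429, miR-221 and the control levels of miR-96 and miR-200a.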
